A study of Mus musculus with 8 samples.

Results

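The genes described here encode collagens, laminins and other proteins of the basement membrane and its surroundings, measured in single endocardium cells of the mouse heart at E8.5. They were chosen by name: every gene on the array called a collagen chain or a laminin chain, with *Fn1*, *Fbn1*, *Fbn2*, *Hspg2*, *Nid1*, *Nid2*, *Sparc*, *Agrn*, *Serpinh1*, *P4hb* and *Lox*. This gave 66 of the 35715 gene names on the array, with 44 collagens, 11 laminins and 11 others, measured by 98 probes that were all usable on every array. The rule uses names only, apart from the brightest probe, by its mean over all arrays, standing for a gene that has more than 1.

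Each of the 8 arrays held the amplified cDNA of 1 endocardium cell at the 9-somite stage. The 4 WT cells were *Mesp1* +/+ with *Sox17* flox/flox, and the 4 *Sox17* KO cells were *Mesp1* Cre/+ with *Sox17* flox/flox, so that both genotypes carried the floxed alleles and only the KO cells carried Cre. *Mesp1*-Cre acts in early mesoderm, which also gives rise to heart muscle, so that the deletion was not limited to the endocardium. *Sox17* was not well above background on either of its 2 probes in any of the 8 cells, WT included, and the arrays therefore give no check of the genotype labels. No embryo is named for any cell. Each genotype was counted as 1 sample for this reason, no test was made, and most differences of single genes below are given with the SD between cells.

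The scanner software called 11370 to 18175 of 55295 probes well above background in the WT cells and 12781 to 16853 in the KO cells. The lowest number was that of WT cell 1, whose array was also the one that the scanner software marked for evaluation. All arrays shared 1 slide and 1 scan, and the genotypes sat in separate columns, so that genotype and place on the slide cannot be told apart. Precision is limited by how few arrays there were. Among 10 endothelial or endocardial markers, all were well above background in at least 1 cell, and *Cdh5*, *Kdr* and *Pecam1* were so in all 8 cells. *Pecam1* was nonetheless at the lower limit of the scale in WT cell 2. The study had assigned the cell type of each cDNA by PCR for marker genes, so that these markers are no independent check of it. All 9 cardiomyocyte markers were also well above background in at least 1 cell. All 5 blood markers were at the lower limit of the scale in all 8 cells, as were 7 of 9 markers of mesenchyme and cushion.

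A basement membrane is the thin sheet of matrix on which endothelium, endocardium and epithelium rest. Laminins, trimers of an alpha, a beta and a gamma chain, polymerise on the cell surface, and type IV collagen forms a network beside them, while nidogens and the proteoglycans perlecan and agrin link the networks to each other and to the cell. In the early heart tube the endocardium lies on cardiac jelly, a swollen matrix between it and the heart muscle, into which both layers secrete. Fibrillar collagens are typical products of mesenchyme and are known for the cushions that form later.

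Levels are given as log2 of the signal after each array was scaled to the same 50th percentile over the 7570 probes detected on all arrays. After scaling, a signal under 50 was set to 50, which is 5.64 on the log2 scale, and values at this floor have no order among themselves. A difference is the mean of the KO cells minus the mean of the WT cells on the log2 scale. Levels of different genes come from different probes and were not set against each other.

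The probes of the genes on which the results turn are shown by their first 30 bases of 60, 5′ to 3′ on the transcript strand, since a reader can place each value only by the piece of transcript that was measured. *Agrn* is shown with both of its probes, *Col4a1* and *Col4a2* as the partners of 1 trimer, *Nid2* and *Lamb1* for their differences between genotypes, and *Fn1*, *Sparc* and *Col18a1* for their signal in every cell.
Agrn, probe used: gctgcatggtatcttgttactaactcagta
Agrn, second probe: ctacgggaactggggcctggcaaattagtc
Nid2: acagtggaaaaggaattggccattatgagt
Lamb1: ccgaggcagtcatctacaaataacccatca
Col4a1: ttttcgtctctggagaaactgtactatcct
Col4a2: cagtcttcctaaaatgaggcagagtctagg
Fn1: ggtgattatttttataagcacatgccaacg
Sparc: ggctgttccgcctggggataaggtgctaac
Col18a1: gacaatgtgtgctatgatgccatttcaaag
The full probes lie on mm9, as the array files give them, at chr4:155539415-155539474 on the minus strand (*Agrn*, probe used), chr4:155546878-155546937 minus (*Agrn*, second probe), chr14:20630490-20630549 plus (*Nid2*), chr12:32014411-32014470 plus (*Lamb1*), chr8:11199009-11199068 minus (*Col4a1*), chr8:11448840-11448899 plus (*Col4a2*), chr1:71632116-71632175 minus (*Fn1*), chr11:55208939-55208998 minus (*Sparc*) and chr10:76514926-76514985 minus (*Col18a1*). Each of these is an exonic stretch of its own gene's transcript by the accession in the array files, and which of them lie in untranslated sequence was not examined.

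Of the 66 genes, 43 (65.2%) were well above background in at least 1 cell and 21 (31.8%) in all 8 cells. Over all 35526 genes with a usable probe these shares were 57.1% and 17.6%. The 23 genes detected in no cell included *Col1a1*, the alpha1 chain of type I collagen, the type V chains *Col5a2* and *Col5a3*, the type VI chains *Col6a3* to *Col6a6*, *Col15a1*, and the laminin chains *Lama2* and *Lamb3*. Detection was not always far from the floor: 11 of the 43 genes were called well above background in some cell and yet had a signal under 50 in all 8. The genes with a signal above the floor numbered 32, of which 15 were above it in every cell and 17 in some cells only. Each cell had between 19 and 25 of the 66 genes above the floor, with 19, 23, 23 and 25 in the WT cells and 21, 23, 22 and 23 in the KO cells, so that the genotypes overlapped in this number.

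**Figure D1:**
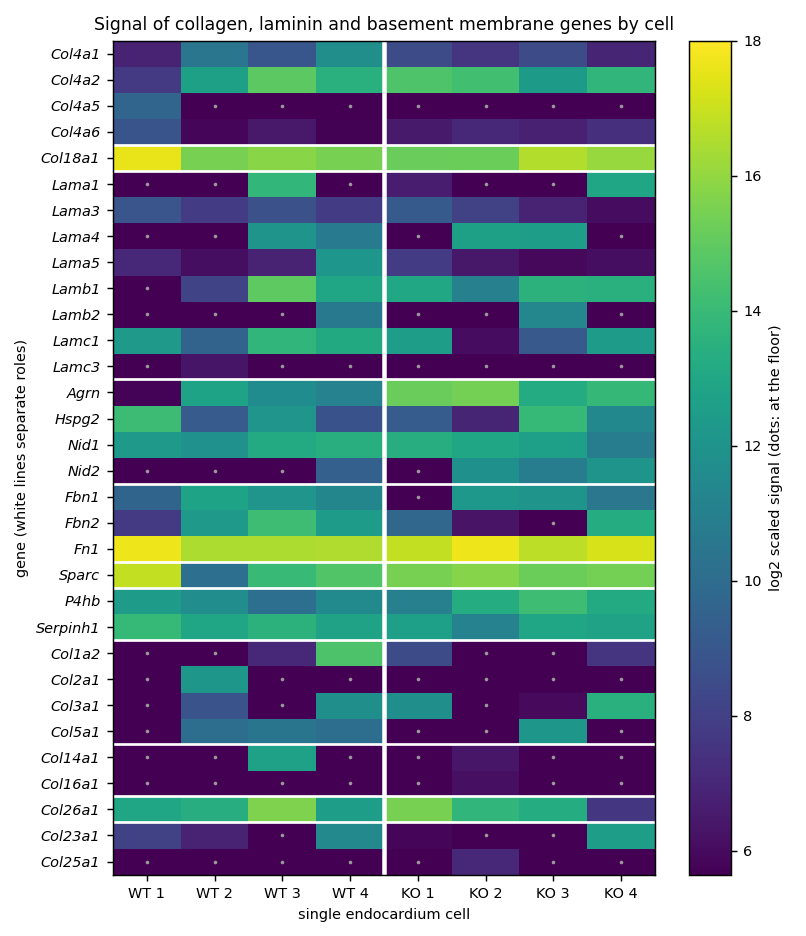
Level of the 32 genes with a signal above the floor in at least 1 cell (rows, grouped by role) in each of the 4 WT and 4 KO cells (columns), as log2 of the scaled signal in colour, with dots at the floor of 5.64. *Fn1* and *Col18a1* were bright in every cell, and *Sparc* was above the floor in every cell, with its lowest level of 10.18 in WT cell 2. *Lama1*, *Lama4* and *Col3a1* were above the floor in some cells of either genotype and at it in others.

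Between the genotypes, 3 of the 66 genes had a mean at least 5-fold higher in KO cells, *Agrn*, *Nid2* and *Lamb1*, and 1, *Fbn2*, had a mean at least 5-fold lower on the probe used, though its other probe went the other way. Over all genes with a usable probe, 1.84% were at least 5-fold higher and 1.86% at least 5-fold lower, against 4.55% and 1.52% of the 66. Among the genes that some cell detected well above background, the shares over all genes were 3.23% and 3.27%, against 6.98% (3 of 43) and 2.33% (1 of 43). These shares rest on 4 genes. *Agrn* was the only one of the 43 whose KO cells all lay above all WT cells, where 1.13% of all detected genes did, and none of the 43 had all KO cells below all WT cells, where 0.252% of all detected genes did. Of the 43 genes, 14 (32.6%) were higher in mean in KO cells, 18 (41.9%) were lower and 11 were at the floor in every cell, while over all 20270 detected genes 39.8% were higher and 32.0% lower. The median difference was 0 in both, a value set by genes at the floor. Over the 15 genes above the floor in all 8 cells it was -0.31, against 0.27 over all 3448 such genes, and over the 21 genes well above background in all 8 cells it was -0.58, against 0.12 over all 6236 such genes. Without WT cell 1 the first pair of values was 0.07 and 0.48. Without WT cell 1, 3 genes were again at least 5-fold higher, *Agrn*, *Nid2* and *Sparc*, but 3 were at least 5-fold lower, *Fbn2*, *Col4a1* and *Col5a1*, beside 2.74% and 5.25% of all detected genes.

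**Figure D2:**
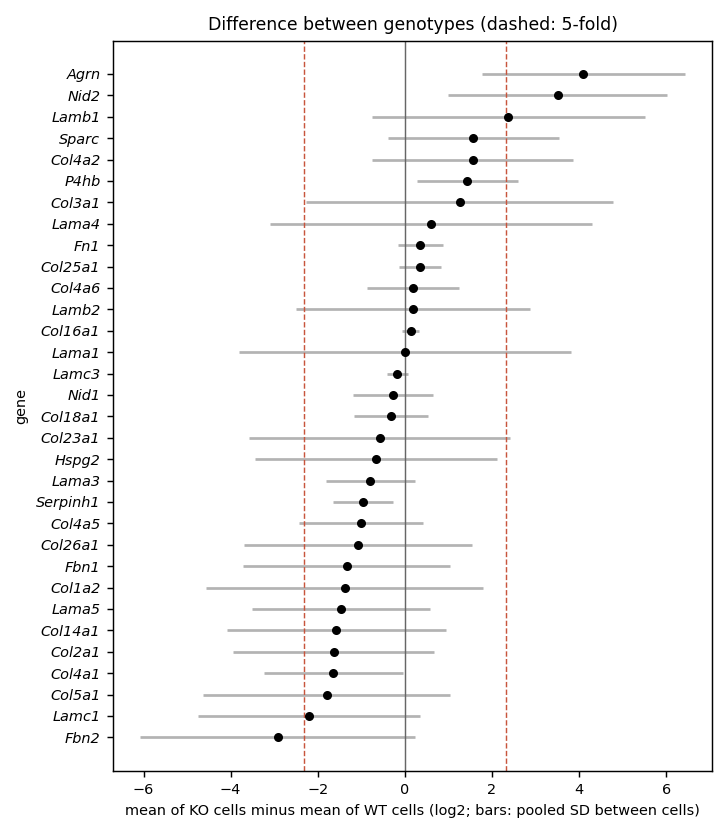
Mean of the 4 KO cells minus mean of the 4 WT cells (log2) for the 32 genes with a signal above the floor, each with the pooled SD between cells as a bar, and 5-fold as dashed lines. For most genes the bar crosses 0, and it does not for *Agrn*, *Nid2*, *P4hb*, *Serpinh1* and *Col4a1*, which are 11.6% of the 43 detected genes, beside 12.9% of all detected genes with a difference over 1 SD.

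The differences stood beside a wide spread between cells of 1 genotype. Over the 15 genes above the floor in all 8 cells the pooled SD had a median of 1.59, from 0.52 to 2.77, and it had a median of 0.82 over the 3448 genes of the whole array that were above the floor in all cells. For 4 of the 15 genes (26.7%) the difference between genotypes was larger than 1 SD between cells, as it was for 27.0% of those 3448. The SD was larger among WT than among KO cells for 8 of the 15 (53.3%), a share equal to that over all 3448 genes (53.3%). Without WT cell 1 these were 5 of the 15 (33.3%) and 34.6%.

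**Figure D3:**
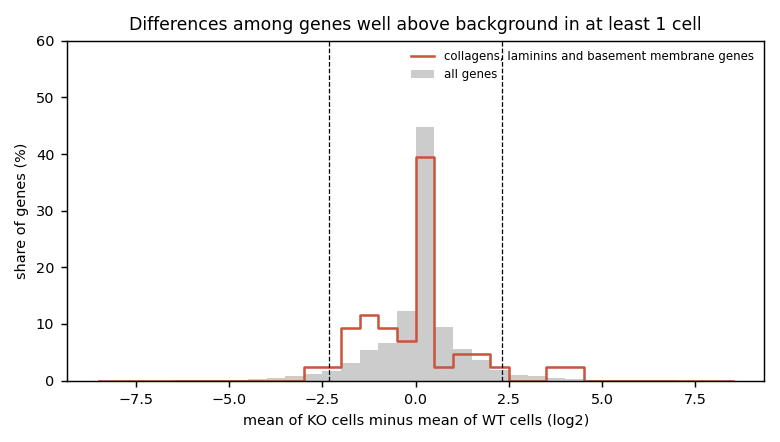
Share of genes (%) by difference between the means of KO and WT cells (log2, bins of 0.5) for all 20270 detected genes in grey and for the 43 detected genes described here as a line, with 5-fold as dashed lines. Genes at the floor in every cell have a difference of 0 and fall in the bin that starts at 0, which holds the largest share of both.

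The links between networks held *Agrn* and *Nid2*, both higher in mean in KO cells. Agrin is a heparan sulfate proteoglycan that binds laminin and, on the cell, dystroglycan. *Agrn* stood at 5.76, 12.82, 11.64 and 11.11 in WT cells 1 to 4 and at 15.19, 15.44, 13.23 and 13.87 in KO cells 1 to 4. All KO cells lay above all WT cells, with 0.41 between the nearest pair, and WT cell 1 was close to the floor. The mean was 4.10 higher in KO cells (17.1-fold), beside a pooled SD of 2.34. Without WT cell 1 the difference was 2.57 (5.96-fold) and the genotypes still did not overlap. This probe begins at base 7303 of the transcript. The other probe, which begins at base 3611 and lies 7463 bases farther 5′ on the genome, was at the floor and not well above background in any cell, so that the difference rests on 1 probe near the 3′ end. The study placed *Agrn* on its own list of probes higher in KO cells from these same arrays, and the values here are not independent evidence of that direction.

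Nidogens are rod-shaped linkers of laminin and type IV collagen, and the genome holds a pair of them. *Nid2* was at the floor in WT cells 1 to 3 and at 9.41 in WT cell 4, and stood at 5.64, 11.85, 10.87 and 12.03 in KO cells 1 to 4. It was well above background in 3 of 4 KO cells and in 2 of 4 WT cells. It was above the floor in 3 of 4 KO cells and in 1 of 4 WT cells, with KO cell 1 among the WT values. Its mean was 3.51 higher in KO cells (11.4-fold), with a pooled SD of 2.51, and a fold against values at the floor depends on where the floor is set. *Nid1* was present in every cell, at 12.32, 11.90, 13.21 and 13.38 in WT and 13.33, 12.91, 12.62 and 10.85 in KO cells. Its difference was -0.28 with a pooled SD of 0.92, within the spread between cells. *Hspg2*, which encodes perlecan, varied between cells of both genotypes, at 14.10, 9.19, 12.09 and 8.74 in WT and 9.22, 6.91, 13.92 and 11.40 in KO cells, with a difference of -0.66 and a pooled SD of 2.77. A second probe, 947 bases farther 5′, was well above background in 2 cells only, both KO, and had a difference of 1.36 in the other direction.

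**Figure D4:**
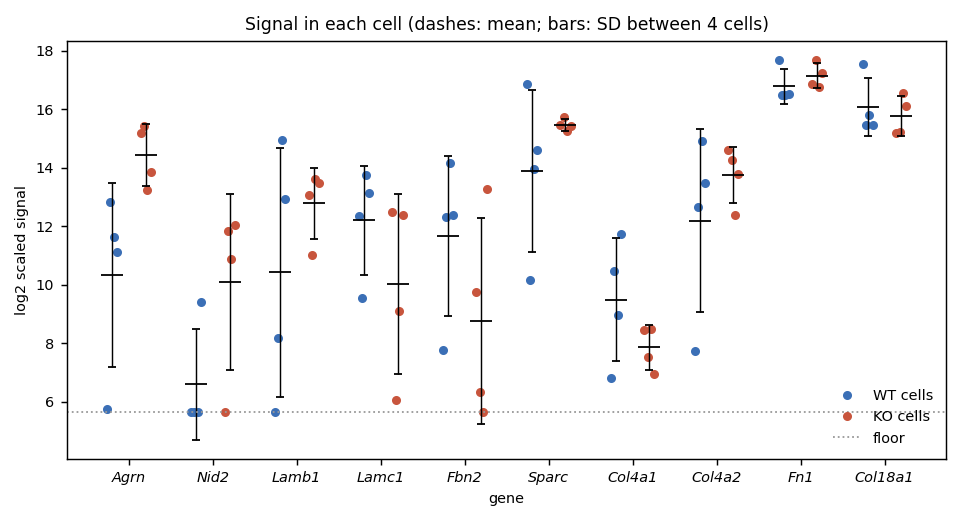
Level (log2 scaled signal) of 10 genes in each of the 4 WT and 4 KO cells, with the mean as a dash, the SD between the 4 cells as a bar and the floor of 5.64 as a dotted line. The KO cells lie above all WT cells for *Agrn* alone, and the KO values of *Sparc* lie within 15.24 to 15.74 while its WT values reach from 10.18 to 16.85.

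Of the 11 laminin chains, 8 were detected in at least 1 cell and 3 were above the floor in all 8. The beta1 and gamma1 chains, shared by most laminins of vessels and early embryos, went opposite ways in mean. *Lamb1* was at 5.64, 8.17, 14.94 and 12.92 in WT cells and at 13.07, 11.00, 13.60 and 13.50 in KO cells. WT cells 1 and 2 were below all KO cells and WT cell 3 was above them all. The mean was 2.38 higher in KO cells (5.19-fold) with a pooled SD of 3.14, and it was 0.78 higher without WT cell 1 and 3.88 higher without WT cell 3. *Lamc1* was at 12.34, 9.56, 13.77 and 13.15 in WT cells and at 12.50, 6.04, 9.10 and 12.40 in KO cells. Its mean was 2.19 lower in KO cells with a pooled SD of 2.55, and KO cells 2 and 3 were below all WT cells. Without KO cell 2 the difference was -0.87. Over the 8 cells Pearson's r of *Lamb1* with *Lamc1* was 0.22, given as a description of cells that share a slide and an amplification method.

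The alpha chain sets the receptor that a laminin binds. *Lama4*, the alpha chain typical of endothelium, was at the floor in WT cells 1 and 2 and at 12.06 and 10.70 in WT cells 3 and 4, and stood at 5.64, 12.67, 12.51 and 5.64 in KO cells. It was therefore above the floor in 2 of 4 cells of each genotype, and its difference of 0.60 was small beside a pooled SD of 3.70. *Lama5*, the other alpha chain of vessels, was at 7.00, 6.12, 6.85 and 12.15 in WT and 7.83, 6.42, 5.92 and 6.09 in KO cells, and its difference of -1.46 came from WT cell 4: without that cell it was -0.09. *Lama3*, known for the epithelium of skin, was well above background in all 8 cells at 8.89, 7.86, 8.70 and 7.86 in WT and 9.14, 8.08, 6.86 and 6.06 in KO cells, with a difference of -0.79 and a pooled SD of 1.03. A second probe for it, 391 bases toward the 3′ end, was not well above background in any cell. *Lama1*, the embryonic alpha chain, was outside the rule for genes given by cell and is named after its values were seen: WT cell 3 had a level of 13.85, KO cell 1 of 6.64 and KO cell 4 of 12.90, with the other 5 cells at the floor. No alpha chain thus separated the genotypes.

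Type IV collagen in most tissues is a trimer of alpha1 and alpha2 chains, whose genes *Col4a1* and *Col4a2* lie head to head. In RefSeq (assembly GRCm38.p6) their annotated starts on chr8 lie 22 bases apart, with the start of *Col4a2* on the plus strand at the left end and that of *Col4a1* on the minus strand at the right end. The stretch from start to start, shown because 1 short interval holds both starts, is printed from the plus strand at chr8:11312805-11312826.
Col4a1 and Col4a2 starts: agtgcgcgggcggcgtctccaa
Of these bases, 16 are G or C. The levels of the chains differed in opposite ways. *Col4a1* was at 6.81, 10.47, 8.95 and 11.73 in WT and at 8.44, 7.54, 8.50 and 6.93 in KO cells. The KO cells were all below WT cells 2 to 4 and above WT cell 1, and the mean was 1.64 lower in KO cells with a pooled SD of 1.59. *Col4a2* stood at 7.72, 12.66, 14.91 and 13.49 in WT and at 14.59, 14.26, 12.39 and 13.77 in KO cells. Its mean was 1.56 higher in KO cells, with a pooled SD of 2.31, and the difference was 0.07 without WT cell 1 and 2.46 without WT cell 3. That of *Col4a1* was -2.53 without WT cell 1 and -0.89 without WT cell 4. Pearson's r between the chains over the 8 cells was 0.30. The 5 genes with the highest r to *Col4a1* were *Lama5* (0.66), *Col5a1* (0.65), *Col1a2* (0.65), *Nid1* (0.42) and *Fbn2* (0.41), out of 25 compared over 8 cells. The lowest were *Col4a6* (-0.85) and *Fn1* (-0.81), larger in size than the highest, and these values describe the pattern only.

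Most values of the minor type IV chains were near or at the floor, and the highest were in WT cell 1. *Col4a6* was detected in all cells on the probe used, at 8.87, 5.81, 6.49 and 5.74 in WT and 6.54, 7.06, 6.78 and 7.29 in KO cells. Its difference was 0.19 with a pooled SD of 1.06. The other probe, 1443 bases toward the 3′ end, was at the floor and not well above background in any cell. *Col4a5* was well above background in 2 WT cells and no KO cell and had a signal above the floor in WT cell 1 alone, at 9.69. *Col4a3* was detected in no cell, and *Col4a4* in 5 cells with every value at the floor.

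*Col18a1*, whose chain carries heparan sulfate and holds the endostatin fragment, was bright in all cells on both of its probes. The probe used was at 17.57, 15.48, 15.82 and 15.47 in WT and 15.20, 15.23, 16.56 and 16.11 in KO cells, a difference of -0.31 with a pooled SD of 0.85. The second probe, 864 bases farther 5′, lay between 13.33 and 15.15 and had a difference of 0.15. Both differences were within the spread between cells, with opposite signs. *Col15a1*, its close relative, was detected in no cell.

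*Fn1*, which encodes fibronectin, the main ligand of alpha5beta1 integrin and a product of early endocardium and mesoderm, had the narrowest spread among the 15 genes above the floor in all cells. It was at 17.69, 16.48, 16.49 and 16.52 in WT and 16.87, 17.70, 16.77 and 17.25 in KO cells. WT cells 2 to 4 lay below all KO cells and WT cell 1 above 3 of them, and the mean was 0.35 higher in KO cells with a pooled SD of 0.52. The sign turned under quantile normalization (-0.19) and under scaling to the 75th percentile (-0.03), settings that lowered the median gene above the floor by 0.24 and 0.39 in KO against WT cells.

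Fibrillins form the microfibrils that carry elastin and store growth factors of the TGF-beta family. *Fbn2*, the fibrillin of embryonic tissue, was at 7.76, 12.33, 14.17 and 12.40 in WT and at 9.74, 6.32, 5.64 and 13.29 in KO cells. Its mean was 2.92 lower in KO cells (7.56-fold), with a pooled SD of 3.15, and KO cell 4 was higher than 3 of the WT cells. The difference was -1.88 without KO cell 3 and -4.43 without KO cell 4. The second probe for *Fbn2*, 3532 bases farther 5′, was at the floor or just above it in WT cells 1 to 3 and at 10.68 in WT cell 4, and stood at 12.21, 10.79, 5.64 and 5.64 in KO cells. Its difference was 1.58 in the other direction, so that the probes disagreed in which genotype was higher and no direction can be given for the gene. *Fbn1* was at 9.62, 12.79, 12.09 and 11.31 in WT and 5.64, 12.25, 12.03 and 10.55 in KO cells. Its difference of -1.33 came from KO cell 1, without which it was 0.16.

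*Sparc* encodes a collagen-binding protein of basement membranes and was detected in all 8 cells. It stood at 16.85, 10.18, 13.96 and 14.62 in WT and at 15.47, 15.74, 15.24 and 15.44 in KO cells. The KO cells lay close together, with an SD of 0.20, and above WT cells 2 to 4, while WT cell 1 was the highest of all and the SD among WT cells was 2.78. The mean was 1.57 higher in KO cells with a pooled SD of 1.97. Without WT cell 2, the lowest, it was 0.33 higher. Without WT cell 1 it was 2.55 higher (5.87-fold), and all KO cells then lay above all WT cells, as they did for 4 of the 43 genes (*Agrn*, *Sparc*, *Fn1* and *Col4a6*) and for 2.67% of all detected genes. A second probe, 937 bases toward the 3′ end, was also detected in all cells, from 9.32 to 12.97, with a difference of 1.80 in the same direction. On that probe WT cell 1 was the lowest of all 8 cells, at 9.32, so that the probes disagreed on this cell. The remaining probe, 1167 bases toward the 3′ end, was at or near the floor.

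**Figure D5:**
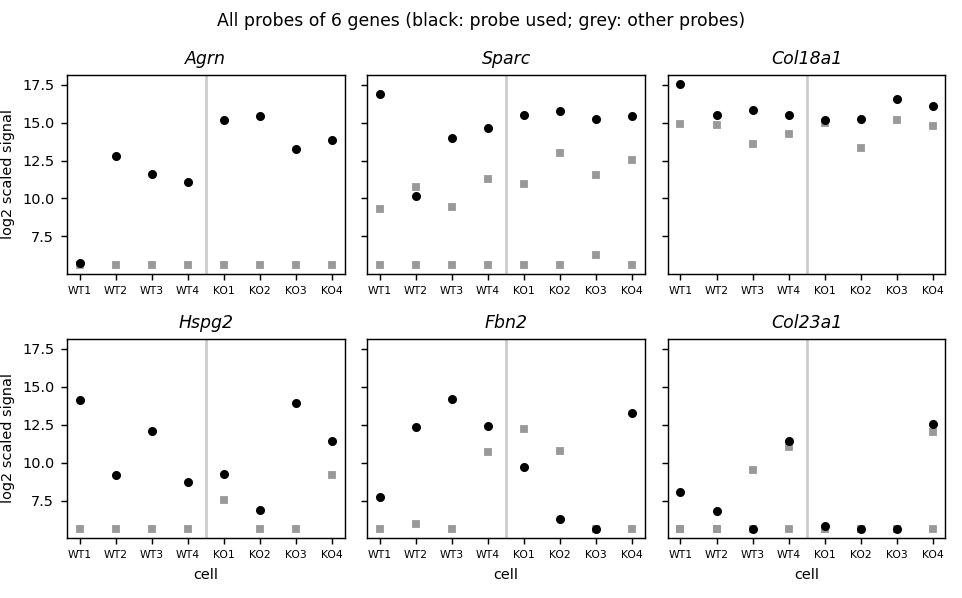
Level (log2 scaled signal) of every probe of 6 genes with several probes in each of the 8 cells, with the probe used in black and the other probes in grey. The probes of *Col18a1* were bright throughout, the second *Agrn* probe lay at the floor in all cells, and the probes of *Fbn2* differed in which genotype was higher.

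Serpinh1 (HSP47) and P4hb work in the endoplasmic reticulum, the one as a chaperone of folded procollagen and the other as protein disulfide isomerase and the beta subunit of prolyl 4-hydroxylase. *Serpinh1* was at 13.93, 12.96, 13.60 and 12.78 in WT and at 12.63, 11.14, 12.89 and 12.75 in KO cells. Its mean was 0.97 lower in KO cells, with a pooled SD of 0.69, and 3 of 4 KO cells were below all WT cells. Without KO cell 2 its difference was -0.56. *P4hb* was at 12.49, 11.71, 10.17 and 11.55 in WT and at 11.03, 13.27, 14.17 and 13.19 in KO cells. Its mean was 1.43 higher in KO cells with a pooled SD of 1.16, and KO cells 2 to 4 were above all WT cells. Both differences were larger than 1 SD between cells and in opposite directions. *Lox*, the lysyl oxidase that starts collagen cross-linking, was well above background in KO cell 4 alone and had no signal above the floor in any cell.

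Among 11 fibrillar collagens, 4 were detected. *Col1a1* was detected in no cell, whereas *Col1a2*, its partner in type I collagen, was well above background in all 8 cells, at 5.64, 5.64, 7.06 and 14.53 in WT and 8.54, 5.64, 5.64 and 7.53 in KO cells. WT cell 4 was far above the others, and the difference of -1.38 became 0.73 without it. *Col3a1* stood at 5.64, 8.79, 5.64 and 11.82 in WT and 11.82, 5.64, 5.95 and 13.51 in KO cells, so that bright and dark cells occurred in both genotypes, with a difference of 1.26 and a pooled SD of 3.53. *Col2a1*, the collagen of cartilage, was not well above background in any KO cell and had a signal above the floor in WT cell 2 alone, at 12.17. *Col5a1* was at the floor in WT cell 1 and from 10.10 to 10.46 in the other WT cells, and was seen in KO cell 3 alone among KO cells, at 12.20, with a difference of -1.79 and a pooled SD of 2.83. *Col2a1* and *Col5a1* were outside the rule for genes given by cell and are named after their values were seen.

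Of the 24 remaining collagens, 13 were well above background in at least 1 cell, and 5 had a signal above the floor in any cell. Of 11 collagens of beaded filaments and other networks, the type VI chains among them, 5 were detected and 1 was above the floor. This was *Col26a1*, a little studied collagen first described in testis and ovary, at 12.94, 13.35, 15.62 and 12.51 in WT and 15.46, 13.79, 13.29 and 7.59 in KO cells. Its difference of -1.07 (pooled SD 2.61) became 0.57 without KO cell 4. Of 9 fibril-associated collagens, 6 were detected and 2 had any signal above the floor, *Col16a1* and *Col14a1*. *Col16a1* was well above background in every cell on the probe used, but above the floor in KO cell 2 alone (6.17). Its other probes were not well above background in any cell. *Col14a1* was at 12.71 in WT cell 3. *Col9a2* was well above background in all 4 WT cells and in 2 KO cells, with every value at the floor. Among 4 transmembrane collagens *Col23a1* was at 8.04, 6.83, 5.64 and 11.44 in WT and 5.82, 5.64, 5.64 and 12.53 in KO cells, with a difference of -0.58 and a pooled SD of 2.99. A second probe for it was at 5.64, 5.64, 9.54 and 11.05 in WT and 5.64, 5.64, 5.64 and 12.02 in KO cells. Both probes were thus bright in cell 4 of each genotype, but they differed in WT cells 1 to 3 in which cell was above the floor. The remaining probe was at the floor in all 8 cells.

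Other genes of the matrix were counted from lists that are not part of the 66. For these lists, the shares over all genes with a usable probe were 1.84% at least 5-fold higher and 1.86% at least 5-fold lower. All KO cells lay above all WT cells for 1.13% of all detected genes and below them for 0.252%. Of 30 enzymes that modify or process collagen, 2 were at least 5-fold higher and 2 at least 5-fold lower in KO cells. *Pxdn*, peroxidasin, which forms the sulfilimine bonds of type IV collagen, was at 5.64, 9.93, 10.32 and 9.54 in WT and 11.27, 13.50, 11.89 and 13.14 in KO cells, a difference of 3.59 with a pooled SD of 1.70 and no overlap. On its second probe the difference was 1.73 and KO cell 1 alone stood clear, at 12.17. *Crtap*, a subunit of the prolyl 3-hydroxylase complex, was 3.33 higher in KO cells (pooled SD 2.80), and *Tgm2*, a transglutaminase, 2.34 lower (pooled SD 4.01). Both overlapped between genotypes.

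Of 30 matrix receptors, 2 were at least 5-fold higher and 0 at least 5-fold lower. *Itgb1*, the beta1 integrin chain of most laminin, collagen and fibronectin receptors, was at 5.64, 6.57, 5.64 and 8.13 in WT and 10.10, 8.46, 8.96 and 9.68 in KO cells, a difference of 2.81 with a pooled SD of 0.98 and no overlap. Its second probe was at the floor in all 8 cells. Of 21 matrix proteases and inhibitors, 2 were at least 5-fold higher and 4 at least 5-fold lower. *Plat*, tissue plasminogen activator, was at 11.96, 10.27, 7.87 and 10.23 in WT cells and at the floor in all KO cells, a difference of -4.44. *Hyal2*, a hyaluronidase, was 2.97 lower in KO cells (pooled SD 2.21), and *Mmp2*, a gelatinase that cleaves type IV collagen, 2.36 higher (pooled SD 3.77). The study listed probes of *Itgb1* and *Plat* from these same arrays, so that their directions are not independent evidence.

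Of 34 other matrix genes, 0 were at least 5-fold higher and 2 at least 5-fold lower. *Hapln1*, which links hyaluronan to versican in cardiac jelly, was at 15.97, 11.97, 14.26 and 13.61 in WT and 5.64, 9.15, 13.85 and 15.13 in KO cells, a difference of -3.01 with a pooled SD of 3.30. The median difference was 0 in each of these 4 lists.

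Markers of heart muscle were also measured in these cells, and their part in the results was not tested. Of 9 cardiomyocyte markers, all were well above background in at least 1 cell, *Myh6* was at the floor in all 8, and the summed signal of the list was 8.31 to 15.23 (log2) in WT and 10.02 to 15.57 in KO cells. *Actc1*, cardiac actin, was 2.67 higher in KO cells (pooled SD 2.79). It was the 1 marker of the 9 at least 5-fold higher, and 0 were at least 5-fold lower, beside 1.84% and 1.86% of all genes. *Myh7* (-1.40, pooled SD 2.58), *Myl4* and *Myl7* were lower in mean in KO cells. Bright values lay in single cells of both genotypes, such as *Myl4* at 14.03 and *Myh7* at 13.24 in WT cell 2. In KO cell 4 *Tnnt2* was at 13.26 and *Myl7* at 12.64. Among the endothelial markers *Emcn*, endomucin, was at the floor in WT cells 1 to 3 and at 6.84 in WT cell 4, and at 8.52, 13.36, 12.54 and 5.64 in KO cells, a difference of 4.07 with a pooled SD of 2.58. It was the 1 marker of the 10 at least 5-fold higher, and 0 were at least 5-fold lower. The median difference of the 10 was -0.06. *Tek* (-2.16, pooled SD 1.88), *Nfatc1* (-1.58, pooled SD 2.23), *Cdh5*, *Pecam1* and *Npr3* were lower in mean in KO cells. *Tie1*, *Sox7*, *Sox18* and *Kdr* were higher. The summed signal of the 10 endothelial or endocardial markers was 13.29 to 15.12 in WT and 12.78 to 16.28 in KO cells, and that of the 9 mesenchyme and cushion markers 5.67 to 12.26 in WT and 4.44 to 11.25 in KO cells. The ranges of the genotypes overlapped for each of these lists. Of 7 endoderm markers 1 had a signal above the floor in any cell, and of 4 smooth muscle markers 2 did.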

How the data were processed

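Single endocardium cells from 4 WT and 4 *Sox17* KO arrays were analysed from the scanner output deposited by the authors (Agilent Feature Extraction 12.0.2.2, array design 028005, probes annotated on mm9). The deposited intensity values were those that the scanner software had corrected for background and for trends over the array, and arrays had not been normalized to each other, and the other flags deposited with them mark outlier spots and signal over background. cDNA had been amplified by PCR from single cells. The labels give 5 min of trypsin, and the tissue as heart tube. The methods give a shorter time in trypsin, and the ventricle.

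Control and outlier spots were dropped, spots of a probe averaged, and 55295 of 55681 probes kept. A probe was well above background when over 50% of its spots were. Arrays were scaled to the 50th percentile of 7570 probes, values under 50 set to 50, and log2 taken. Of the 66 genes, 65 matched RefSeq by accession under the same symbol, and *Col19a1* kept its array name. Genes given by cell were 18 fixed names, any other member detected in all 4 cells of a genotype, and any other member at least 5-fold apart; from the other lists, those at least 5-fold apart and detected in all 4 cells of the brighter genotype. Members and lists were chosen with earlier results of these data known. No fold is given where no cell of a genotype was well above background. The alternatives were 12 other settings and leaving out each of the 8 cells. Steps were tested on simulated data. Python 3.11.15, numpy 2.4.6, pandas 2.3.3, matplotlib 3.10.9 and R 4.3.3 with limma 3.58.1 (normexp, offset 50) were used.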

Additional observations from a re-analysis of the deposited data

Results flagged for a closer look

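For each gene given by cell, the highest and the lowest of the 4 cells of a genotype were compared with the nearest other cell by Dixon's ratio, the gap over the whole range, against the 95% critical value for 4 values. Of 47 groups of 4 cells, 8 had a cell beyond it. The rate of about 1 in 20 groups by chance holds for values without a floor, so that this count cannot be set against it. The ratio was 0.972 for *Fn1* and 0.833 for *Col18a1* in WT cells, both with WT cell 1 highest. WT cell 4 was highest for *Lama5* (0.855), *Col1a2* (0.841) and *Nid2* (1) in WT cells. In KO cells the ratio was 0.974 for *Col23a1*, with KO cell 4 highest, 1 for *Col16a1*, with KO cell 2 highest, and 0.853 for *Serpinh1*, with KO cell 2 lowest. For *Nid2* and *Col16a1* the other 3 cells were at the floor, which makes the ratio 1 by itself. For *Col1a2* in WT and *Col23a1* in KO cells, 2 cells were at the floor, and the other 4 flagged groups had 0 or 1 there.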

How the results depend on the processing

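No paired analysis was possible because no comparison has a test and the numbers of the cells name no shared embryo. The number of members at least 5-fold lower in KO cells was 1 and became 2 under the 75th percentile and under quantile normalization (*Lamc1* added), 3 with a floor of 10 (*Col2a1* and *Col5a1* added), and 0 with a floor of 200 and with all probes of each gene averaged. Leaving out each cell in turn gave 0 to 3 for this count. It gave 2 to 4 for the number at least 5-fold higher, 40 to 43 for the number detected, and a median difference of 0 throughout. The number at least 5-fold higher was 2 or 3 under the other settings, and *Lamb1* was the gene lost except with all probes averaged, where *Agrn* was lost, and with only genes detected on all arrays, where *Nid2* was lost. Without WT cell 3 *Col4a2* joined, and without WT cell 4, KO cell 2 or KO cell 3 *Col3a1* joined. The 75th percentile, all probes for the percentile and quantile normalization lowered the median gene above the floor by 0.39, 0.25 and 0.24 in KO against WT cells. Of 459 values of the 27 genes given by cell under 17 settings, 451 stayed within 1 SD between cells. The SD is a wide measure here: *Lamb1* counted as within it while going from 2.38 to 0.78 without WT cell 1. The opposite sign was never seen for 16 genes. Among them were *Col1a1*, *Col9a2* and *Lox*, whose difference was 0, so that they had no sign to turn. What moved each count was not tested. Depth limits low levels: 23 of the 66 genes were not detectable here in any cell, which does not show that they are absent.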
